A study of Mus musculus with 10 samples.

Results

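Transcripts of 8 genes that mark platelets and their parent cells, the megakaryocytes, were followed in RNA of CD31+/CD45- cells from mouse lung. The 8 are Ppbp, Pf4, Gp1ba, Gp1bb, Gp9, Gp6, Clec1b and Treml1, taken by name from 24538 genes in the count files, and all 8 were found there and in the FPKM table. They were measured in 5 libraries from dissected lung metastases and in 5 from normal lung. Both groups came from wild type C57BL6/J mice of 8 to 10 weeks. The females that carried metastases had received E0771-LG mammary tumour cells, a mouse line, through the tail vein at 6 to 8 weeks of age. Metastases of less than 1 mm across were cut out, and tissue of 2 to 4 mice was pooled per sample. The labels give 1 protocol for both groups. Lungs were perfused, digested for 30 min at 37 °C with the transcription blockers alpha-amanitin and actinomycin D, freed of red cells by lysis, and sorted for live cells with CD31, a surface protein of endothelial cells, and without CD45, the pan-leukocyte surface protein. The labels do not say which mice went into which library, so p-values measure the spread between these libraries.

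Platelets are cell fragments without a nucleus that megakaryocytes shed, and they keep part of the megakaryocyte's RNA. Their alpha granules carry chemokines such as those of Ppbp and Pf4. The GPIb-IX receptor, built from the products of Gp1ba, Gp1bb and Gp9, binds von Willebrand factor. GPVI, the product of Gp6, binds collagen, CLEC-2, the product of Clec1b, binds podoplanin, and TLT-1, the product of Treml1, sits in alpha granules and reaches the surface on activation. Platelets and megakaryocytes carry CD31, and the lung holds megakaryocytes in mice.

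Gene positions below are from GENCODE M21 (GRCm38), and promoter sequences are RefSeq's for GRCm38.p6, which held a window of 250 bases before to 50 bases after the start for all 8 genes. Ppbp (chr5:90768518-90770063, plus strand) and Pf4 (chr5:90772435-90773383, plus strand) lie 2.37 kb apart. Gp1ba lies at chr11:70639122-70642036 on the plus strand, Gp1bb at chr16:18620317-18622403 on the minus strand, and Gp9 at chr6:87778072-87779768 on the plus strand. Gp6 lies at chr7:4363965-4397744 on the minus strand, Clec1b at chr6:129397297-129409335 on the plus strand, and Treml1 at chr17:48359916-48367176 on the plus strand. Of the exonic bases of Gp1bb, 91.1% are shared with Sept5 on the same strand, and Sept5 was listed at 0 in every library. Of the exonic bases of Clec1b, 3.61% are shared with Clec9a on the same strand. The level of Gp1bb is therefore uncertain, as the sources used here do not say how such reads were counted.

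The promoters of 4 members are printed because Ppbp and Pf4 are neighbours that both rose, Gp1ba also rose, and Gp6 passed no test. Capitals mark the letters GATAA on either strand, the core of the site read by GATA factors, which as background include the megakaryocyte factor GATA1.
Ppbp: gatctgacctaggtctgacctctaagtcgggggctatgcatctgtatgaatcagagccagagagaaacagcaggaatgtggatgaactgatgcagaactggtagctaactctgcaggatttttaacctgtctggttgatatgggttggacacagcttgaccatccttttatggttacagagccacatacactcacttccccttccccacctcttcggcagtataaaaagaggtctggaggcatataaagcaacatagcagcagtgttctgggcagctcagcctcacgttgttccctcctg
Pf4: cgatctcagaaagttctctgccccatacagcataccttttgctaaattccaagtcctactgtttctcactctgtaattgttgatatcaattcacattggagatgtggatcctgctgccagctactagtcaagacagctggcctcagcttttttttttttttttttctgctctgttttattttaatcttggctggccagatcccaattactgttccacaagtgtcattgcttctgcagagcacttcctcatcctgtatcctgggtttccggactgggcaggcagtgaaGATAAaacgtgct
Gp1ba: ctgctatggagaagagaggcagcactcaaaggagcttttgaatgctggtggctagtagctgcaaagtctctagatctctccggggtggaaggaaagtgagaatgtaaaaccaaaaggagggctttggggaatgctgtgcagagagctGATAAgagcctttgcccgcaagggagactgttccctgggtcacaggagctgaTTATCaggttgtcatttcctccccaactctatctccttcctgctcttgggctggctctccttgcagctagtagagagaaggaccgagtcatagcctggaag
Gp6: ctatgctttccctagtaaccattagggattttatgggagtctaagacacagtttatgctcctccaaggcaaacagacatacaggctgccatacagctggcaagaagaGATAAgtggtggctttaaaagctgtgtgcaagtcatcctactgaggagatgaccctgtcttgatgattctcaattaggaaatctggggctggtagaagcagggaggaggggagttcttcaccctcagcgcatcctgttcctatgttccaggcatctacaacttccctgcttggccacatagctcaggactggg
These windows are chr5:90768268-90768567 (plus), chr5:90772185-90772484 (plus), chr11:70638872-70639171 (plus) and chr7:4397695-4397994 (minus), in the order printed. Counted from the start base as 1, the match began at position 38 in Pf4, 103 and 51 bases upstream in Gp1ba, the nearer one on the minus strand, and 143 bases upstream in Gp6. Of all 8 members 5 held GATAA, against 25.4% of 32851 promoters of this length, and Ppbp, Gp1bb and Treml1 held none. The letters GGAAG, the core of ETS factor sites, were in 7 of 8 members and in 71.4% of all promoters, and in these 8 windows no match of either motif lay over one of the other. A match is a description of letters and no shown site.

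Counts assigned to genes came to 21.7 to 54.3 M in metastasis libraries and 41 to 79.7 M in normal lung libraries. Levels are in counts-per-million (CPM), with library sizes scaled by TMM, unless FPKM, a value per transcript length, is named. Groups were compared with edgeR's quasi-likelihood test across 11823 genes that passed a filter on low counts, with Benjamini-Hochberg adjustment and a threshold of 0.05, and "rose" or "fell" is used of genes past it. Of the 8 genes 7 passed the filter. Endothelial RNA was lower in metastases, although CD31 was the sort marker in both groups: the summed CPM of 19 pan-endothelial markers spanned 1105 to 6627 in metastases and 13236 to 26128 in normal lung, and 17 of the 19 fell. Pecam1, which encodes CD31, fell by 1.91 ± 0.47 on the log2 scale (SE; edgeR adjusted p = 0.00549) and turned to 0.20 when libraries were scaled to the pan-endothelial genes, a scaling that moved the median of all genes to 2.75. In libraries 1 and 2 alone it was at -1.64 (adjusted p = 0.102). Libraries 1 and 2 of both groups stand first in the header of the submitters' FPKM table, ahead of libraries 3 to 5. The share of counts on Rn45s, the ribosomal RNA precursor, also separated these sets, at 1.45 to 4.61% against 0.408 to 1.24%, so values within each set are given for the platelet genes, and for other called genes where a set alone made no call.

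Of the 7 tested platelet genes 3 rose in metastases, namely Ppbp, Pf4 and Gp1ba. Across all tested genes 12% were called higher and 8.22% lower. None of the 7 fell by edgeR, also at an unadjusted p under 0.05, by DESeq2 or by limma on FPKM. The other 4 tested genes, Gp1bb, Gp9, Gp6 and Clec1b, made no call, and Treml1 was too low in most libraries to be tested. The median log2 fold change of the 7 was 2.43, against 0.06 over all tested genes, and 6 of the 7 were positive. With pan-endothelial scaling 6 of the 7 were called higher, all but Gp6 (1.57, adjusted p = 0.345). That scaling called 6851 of all 11823 tested genes higher and 18 lower, so 6 of 7 is no trait of the platelet genes alone. For each of the 8 genes the CPM of the groups overlapped, while 14.7% of all tested genes had no overlap. Because the RNA is from bulk samples, several sources of such differences cannot be told apart. They include a different number of platelets or megakaryocytes, a different amount of RNA per cell, and RNA of these genes from other cells. CPM are shares of a library, so a lower share of endothelial RNA cannot be told apart from these either.

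**Figure D1:**
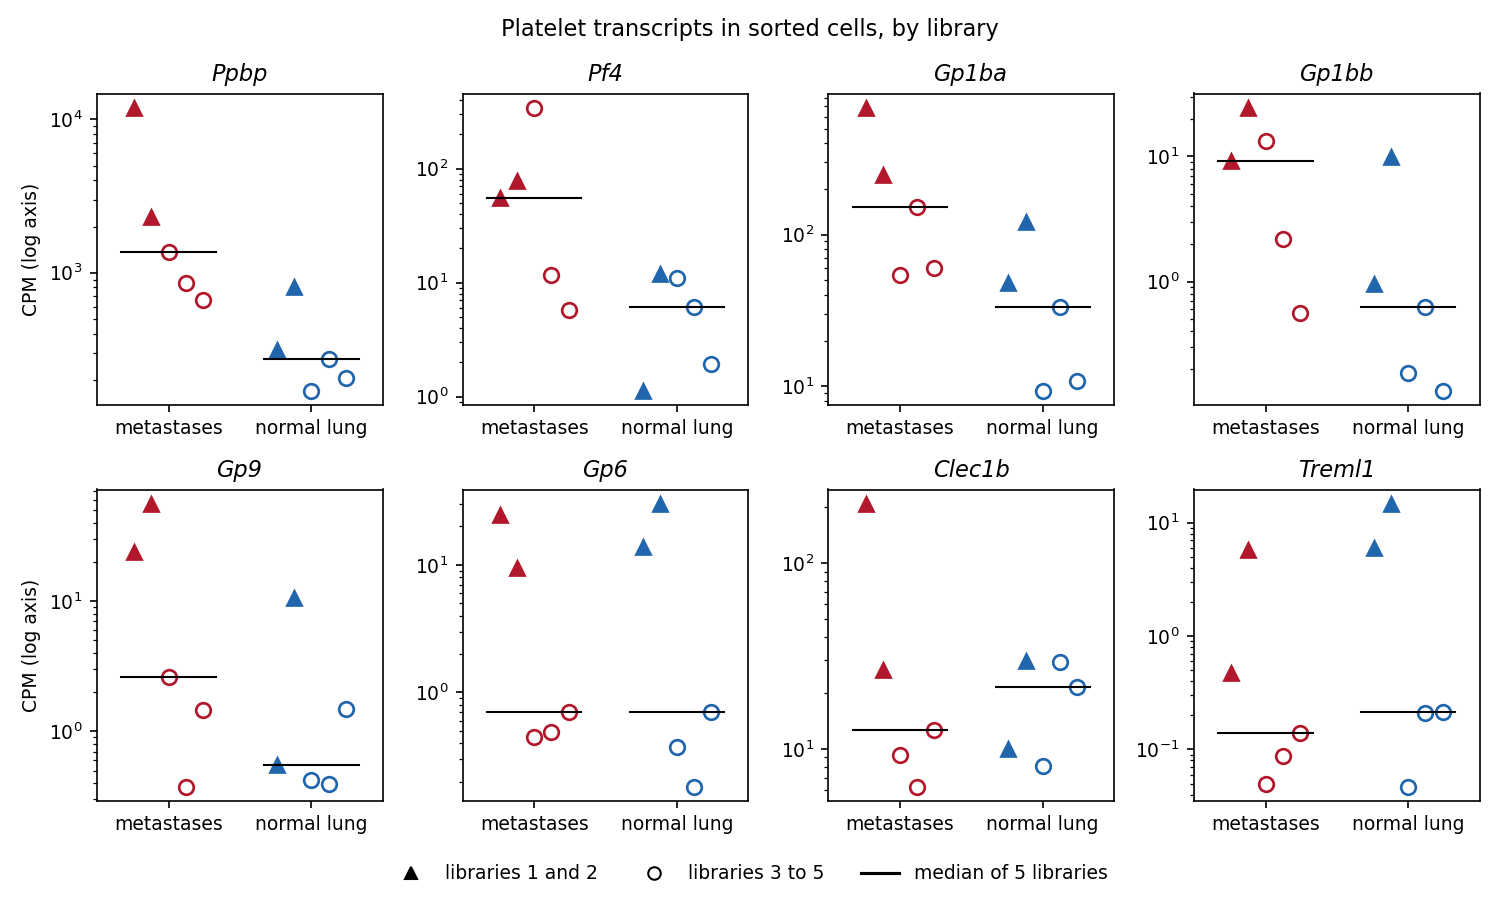
CPM of each of the 8 platelet genes on log axes, 1 point per library, metastases left and normal lung right, with the median as a line. The medians of Ppbp, Pf4, Gp1ba, Gp1bb and Gp9 were higher in metastases, those of Gp1bb and Gp9 without a call, while filled triangles (libraries 1 and 2) lay above open circles (libraries 3 to 5) in both groups for Gp6 and Treml1.

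Ppbp encodes pro-platelet basic protein, the source of the chemokine CXCL7. It had 11948, 2300.2, 1359.6, 850 and 660.2 CPM in metastasis libraries 1 to 5, against 311, 809.8, 170, 272 and 206 CPM in normal lung libraries 1 to 5. Metastasis library 1 stood far above every other library, and normal library 2 alone reached into the range of the metastases, above metastasis library 5. The means were 3424 ± 4808 CPM in metastases and 354 ± 261 CPM in normal lung (SD, n = 5 each), and the log2 fold change was 3.27 ± 0.71 (SE; 9.67-fold; edgeR adjusted p = 0.00289). The ratio of the medians was 4.99, and an exact permutation test over 252 splits gave p = 0.0159, two-sided, where 0.00794 is the smallest possible. Without metastasis library 1 the log2 fold change was 1.84 (adjusted p = 0.00648), and the gene passed with each of the 10 libraries left out in turn. Within libraries 1 and 2 it was 3.68 ± 0.70 (adjusted p = 0.00088) and within libraries 3 to 5 it was 2.13 ± 0.41 (adjusted p = 0.00502).

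By rank of counts among all genes of a library, Ppbp stood at 3, 8, 84, 67 and 116 in metastasis libraries 1 to 5 and at 663, 126, 1268, 681 and 1010 in normal lung libraries 1 to 5. It made up 76.3 to 92.2% of the counts of the 8 genes in metastases and 78 to 85.2% in normal lung. The 8 genes together took 1.16, 0.331, 0.145, 0.13 and 0.0971% of gene counts in metastasis libraries 1 to 5, against 0.0339, 0.109, 0.0174, 0.032 and 0.0216% in normal lung libraries 1 to 5. Normal library 2 carried a larger share than metastasis library 5, and the other 4 normal libraries carried less than any metastasis library. Per transcript length Ppbp also led: it had the highest FPKM of the 8 in 9 of 10 libraries, and Pf4 had it in metastasis library 3.

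Pf4 encodes platelet factor 4, CXCL4, a heparin-binding chemokine of the same granules. It had 55.6, 77.4, 342, 11.6 and 5.71 CPM in metastasis libraries 1 to 5, against 1.13, 11.9, 10.9, 6.05 and 1.92 CPM in normal lung libraries 1 to 5. Metastasis libraries 1 to 3 lay above all normal libraries, and metastasis libraries 4 and 5 lay within their range. The means were 98.6 ± 139.6 CPM in metastases and 6.38 ± 4.96 CPM in normal lung (SD, n = 5 each), with a log2 fold change of 3.95 ± 0.97 (SE; 15.4-fold; edgeR adjusted p = 0.00503). The exact permutation p was 0.0556, two-sided. Without metastasis library 3 the log2 fold change was 2.52 and the call was lost (adjusted p = 0.0712), and over the other libraries left out it was 3.65 to 4.27. Pf4 lost its call within either set, at 3.36 (adjusted p = 0.159) in libraries 1 and 2 and 4.23 (adjusted p = 0.0532) in libraries 3 to 5.

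The 2 chemokine genes did not keep a fixed proportion. For 100 counts of Ppbp there were 0.465, 3.37, 25.2, 1.37 and 0.865 counts of Pf4 in metastasis libraries 1 to 5, against 0.364, 1.46, 6.44, 2.22 and 0.931 in normal lung libraries 1 to 5. Library 3 had the highest ratio in each group and library 1 the lowest. Metastasis library 1, the highest for Ppbp, was thus only the third of its group for Pf4. The ratios are of counts, not per length, and are compared only between libraries.

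Gp1ba encodes the subunit of GPIb-IX that holds the binding site for von Willebrand factor. Of the 3 subunit genes it was the one that passed the threshold, and differences between the 3 were not tested. It had 687, 248, 54.2, 152 and 60.6 CPM in metastasis libraries 1 to 5, against 48.1, 121, 9.36, 33.1 and 10.8 CPM in normal lung libraries 1 to 5. Every metastasis library lay above 4 of the 5 normal ones, and normal library 2 stood above metastasis libraries 3 and 5. The means were 240.2 ± 262 CPM in metastases and 44.5 ± 45.8 CPM in normal lung (SD, n = 5 each), with a log2 fold change of 2.43 ± 0.72 (SE; 5.4-fold; edgeR adjusted p = 0.0177; exact permutation p = 0.0397, two-sided). Without metastasis library 1 it was 1.50 and the call was lost (adjusted p = 0.135), and with any other library left out it stayed called at 2.15 to 3.22. Libraries 1 and 2 alone gave 2.48 (adjusted p = 0.0337) and libraries 3 to 5 alone 2.31, without a call (adjusted p = 0.0676).

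Gp1bb encodes the beta chain that is linked to GPIb-alpha by disulphide bonds. It had 9.24, 24.5, 13.2, 2.18 and 0.564 CPM in metastasis libraries 1 to 5, against 0.949, 9.85, 0.188, 0.626 and 0.135 CPM in normal lung libraries 1 to 5. Normal library 2 was about as high as metastasis library 1, and the other 4 normal libraries were below 1 CPM. The log2 fold change was 2.08 ± 1.38 (SE; edgeR adjusted p = 0.323; exact permutation p = 0.0952, two-sided), and it was 4.35 (adjusted p = 0.0536) without normal library 2 and 1.43 (adjusted p = 0.546) without metastasis library 2. Libraries 1 and 2 alone gave 1.65 (adjusted p = 0.705) and libraries 3 to 5 alone 4.03 (adjusted p = 0.135).

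Gp9 encodes GPIX, the small subunit that the complex needs to reach the surface. It had 23.9, 55.9, 2.63, 0.377 and 1.45 CPM in metastasis libraries 1 to 5, against 0.551, 10.5, 0.424, 0.391 and 1.49 CPM in normal lung libraries 1 to 5. Metastasis libraries 1 and 2 lay above all normal libraries, while metastasis libraries 4 and 5 lay among or below them. The log2 fold change was 2.65 ± 1.36 (SE; edgeR adjusted p = 0.186; exact permutation p = 0.238, two-sided). Leaving out normal library 2 gave 4.53 and a call (adjusted p = 0.0423), and leaving out metastasis library 2 gave 1.41 (adjusted p = 0.549). Libraries 1 and 2 alone gave 2.86 (adjusted p = 0.341) and libraries 3 to 5 alone 0.93 (adjusted p = 0.717).

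The 3 subunit genes kept no fixed proportion either. For 100 counts of Gp1ba there were 1.35, 9.89, 24.3, 1.44 and 0.931 counts of Gp1bb in metastasis libraries 1 to 5, against 1.97, 8.13, 2.01, 1.89 and 1.25 in normal lung libraries 1 to 5. The corresponding counts of Gp9 were 3.48, 22.5, 4.85, 0.249 and 2.39 in metastases, against 1.15, 8.7, 4.52, 1.18 and 13.8 in normal lung. Library 2 was high for Gp1bb in both groups, and no ratio kept the groups apart.

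Gp6 encodes GPVI, the collagen receptor. It had 24.7, 9.49, 0.447, 0.494 and 0.705 CPM in metastasis libraries 1 to 5, against 13.9, 30.2, 0.376, 0.183 and 0.702 CPM in normal lung libraries 1 to 5. The 4 libraries numbered 1 and 2 held 9.49 to 30.2 CPM and the 6 numbered 3 to 5 held 0.183 to 0.705 CPM, in both groups alike. Between the groups the log2 fold change was -0.34 ± 1.40 (SE; edgeR adjusted p = 0.902; exact permutation p = 0.921, two-sided), and it spanned -1.73 to 0.90 with 1 library left out. It was -0.35 (adjusted p = 0.937) in libraries 1 and 2 and 0.37 (adjusted p = 0.887) in libraries 3 to 5.

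Treml1 encodes TLT-1, the receptor of the TREM family stored in alpha granules. It had 0.474, 5.74, 0.0496, 0.0871 and 0.141 CPM in metastasis libraries 1 to 5, against 5.93, 14.7, 0.0471, 0.209 and 0.216 CPM in normal lung libraries 1 to 5. These rest on 14, 375, 1, 3 and 4 counts in metastases and 387, 1233, 2, 8 and 8 counts in normal lung. The single count in metastasis library 3 has an exact 95% Poisson interval of 0.0253 to 5.57 counts, which covers counting error only. As for Gp6, all libraries numbered 1 and 2 stood above all numbered 3 to 5. For metastasis library 1 this is within counting error. Its 95% Poisson interval of 0.259 to 0.795 CPM overlaps that of normal library 5, 0.0933 to 0.426 CPM. An exact permutation test of log2(CPM + 1) gave a difference of -0.74 (metastases minus normal lung; p = 0.452, two-sided), and edgeR without the filter gave -1.76 ± 1.67 (SE; adjusted p = 0.467). In libraries 1 and 2 alone it passed the filter, at -1.72 (adjusted p = 0.724), and in libraries 3 to 5 alone it did not.

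Gp6 and Treml1 were the 2 members whose measured levels separated the library sets completely, for Treml1 with overlapping counting intervals. The mean of Gp6 in libraries 1 and 2 over that in libraries 3 to 5 was 31.2 in metastases and 52.5 in normal lung, and for Treml1 the ratios were 33.6 and 65.7. Among all tested genes, which include Gp6 but not Treml1, 148 (1.25%) were higher in libraries 1 and 2 without overlap and 74 (0.626%) were lower. The other 6 members overlapped between the sets. Whether the sets differ in platelets, in handling or in sequencing was not tested, and no label names what sets them apart.

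Clec1b encodes CLEC-2, the podoplanin receptor. It had 209, 26.7, 9.28, 6.27 and 12.6 CPM in metastasis libraries 1 to 5, against 10, 29.6, 8.09, 29.5 and 21.6 CPM in normal lung libraries 1 to 5. Outside metastasis library 1 the metastases lay within or below the range of normal lung. The means were 52.7 ± 87.5 CPM in metastases and 19.8 ± 10.3 CPM in normal lung (SD, n = 5 each), but the medians were 12.6 CPM in metastases and 21.6 CPM in normal lung. The log2 fold change was 1.41 ± 0.89 (SE; edgeR adjusted p = 0.292; exact permutation p = 0.833, two-sided), and -0.55 (adjusted p = 0.721) without metastasis library 1. Libraries 1 and 2 alone gave 2.58 (adjusted p = 0.168) and libraries 3 to 5 alone -1.09 (adjusted p = 0.527).

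Against Ppbp, Clec1b was at 1.75, 1.16, 0.683, 0.738 and 1.91 counts per 100 in metastasis libraries 1 to 5 and at 3.23, 3.65, 4.76, 10.8 and 10.5 in normal lung libraries 1 to 5, with no overlap between the groups. This ratio was singled out after its values were seen, so no test is given. Its denominator, Ppbp, itself rose by 3.27 on the log2 scale, and the CPM of Clec1b overlapped between the groups. How many other genes would keep the groups apart when set against Ppbp was not counted, so the separation is not shown to be a trait of Clec1b. Counts of Clec1b may include reads of Clec9a, a C-type lectin gene of dendritic cells that overlaps its end, and Clec9a averaged 128 ± 130.4 CPM in metastases and 411 ± 171 CPM in normal lung (SD, n = 5 each). The FPKM of Clec1b over its CPM ran from 0.148 to 0.986 between libraries, and the order of libraries by the 2 values had a Spearman rho of 0.64, against 0.89 to 0.99 for the other members. In FPKM the ratio of the means was 2.69 on the log2 scale, against 1.41 in CPM.

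**Figure D2:**
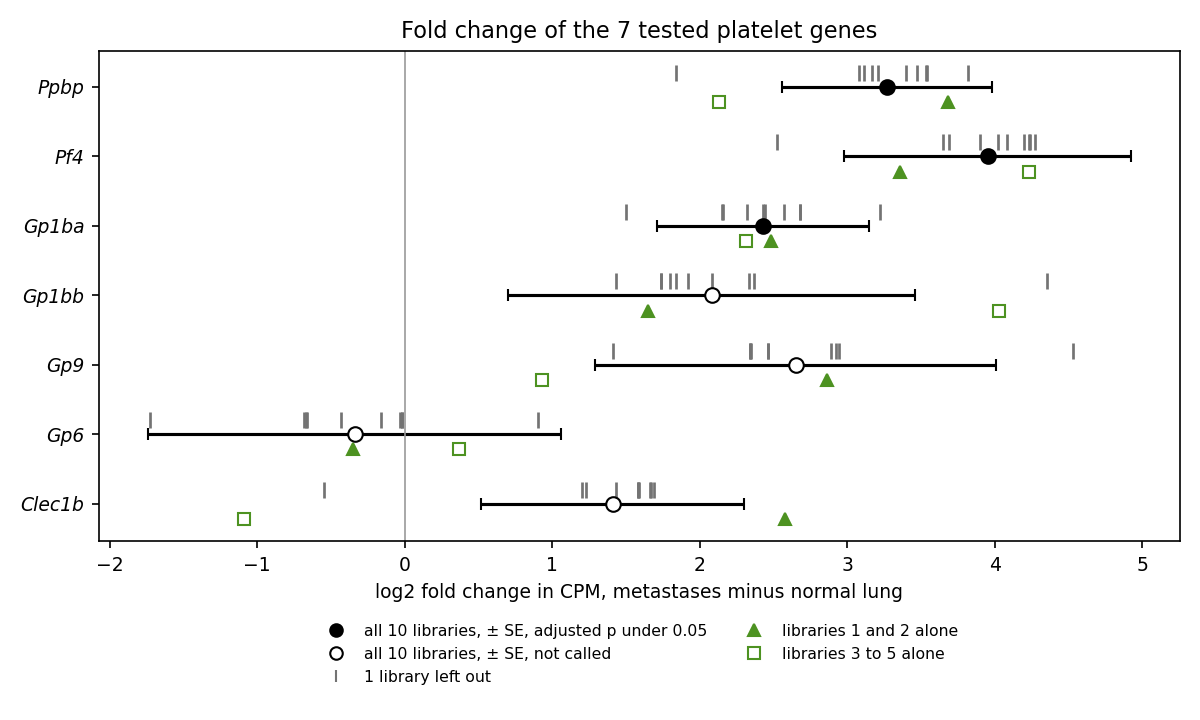
Log2 fold change of CPM, metastases minus normal lung, for the 7 tested genes over all 10 libraries (circles with SE, filled where the adjusted p is under 0.05), with 1 library left out (grey ticks), in libraries 1 and 2 alone (triangles) and in libraries 3 to 5 alone (squares). Ppbp stayed between 1.84 and 3.82 with 1 library left out, and Clec1b spanned -0.55 to 1.69.

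Within the groups the members moved together to different degrees. The values used were log2 CPM less the mean of the library's own group, over 10 libraries, and the correlations are a description of libraries that share depth and preparation. Ppbp had a Pearson r of 0.87 with Clec1b, 0.85 with Gp1ba and 0.79 with Gp6. Pf4 stood apart, at 0.05 with Gp6, 0.08 with Gp1ba and 0.38 with Ppbp, and its closest member was Gp1bb at 0.64. The mean deviation of the 7 tested genes was 2.19, 1.47, -0.23, -1.62 and -1.80 in metastasis libraries 1 to 5, and 0.05, 2.36, -1.07, -0.49 and -0.84 in normal lung libraries 1 to 5. By this mean normal library 2 and metastasis library 1 were the high libraries of their groups. Metastasis library 1 did not lead for each gene, as metastasis library 2 stood above it for Pf4, Gp1bb and Gp9.

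The genes whose deviations were most like that mean were Dysf (r = 0.96), F5 (0.96), Slamf1 (0.95), Tubb1 (0.95) and Dlg2 (0.94), each over 10 libraries. F5, coagulation factor V, and Tubb1, the beta-tubulin of the platelet's marginal band, are known in platelets, and Dysf encodes the membrane repair protein dysferlin. Likeness within groups did not go with 1 direction between them. Genes called lower in metastases also stood high in this ranking, so likeness to this mean does not by itself mark platelet RNA. F5, Slamf1, a receptor of the SLAM family, and Dlg2, a scaffold protein known from synapses, rose by 3.34 ± 0.79, 3.94 ± 1.08 and 4.02 ± 1.11 (log2 ± SE; edgeR adjusted p = 0.00571, 0.0111 and 0.0135), and Dlg2 lost its call without metastasis library 1 (2.70, adjusted p = 0.0801). Tubb1 was at 1.46 ± 1.13 (adjusted p = 0.416) and Dysf at -1.46 ± 0.81 (adjusted p = 0.228). Dlg2 also made no call in libraries 3 to 5 alone (3.73, adjusted p = 0.0745).

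**Figure D3:**
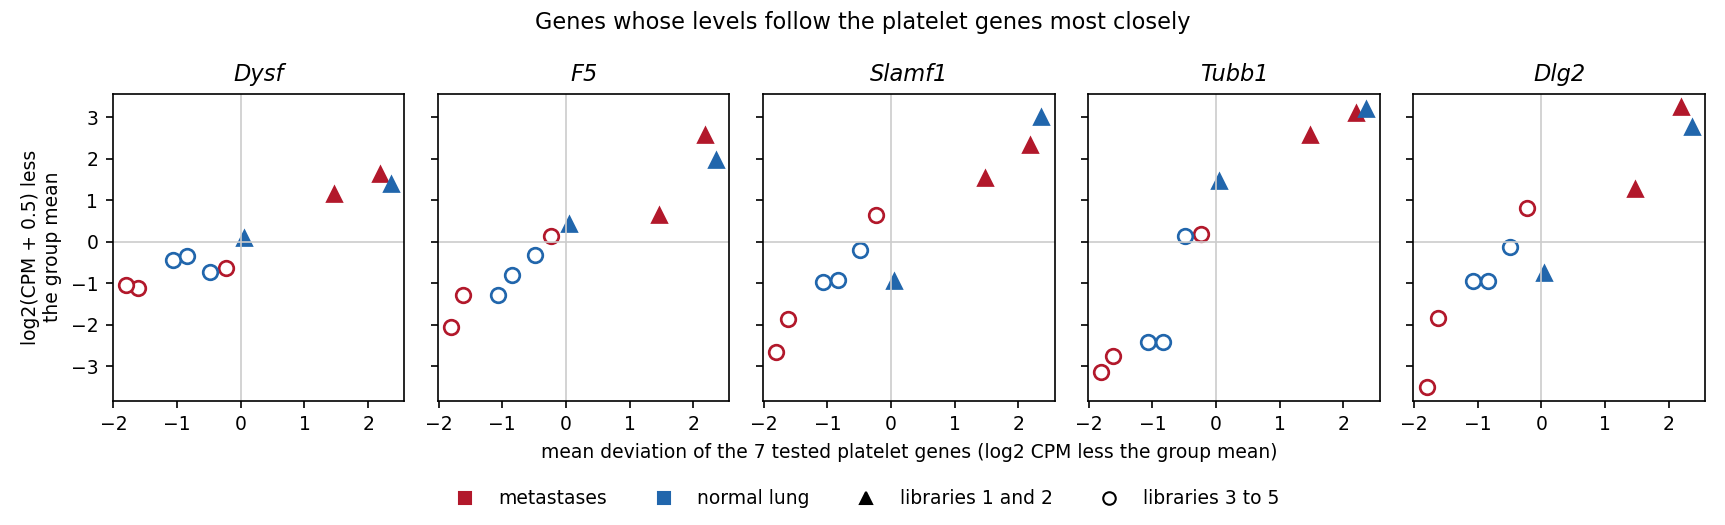
For each of 5 genes, log2 CPM less the group mean (vertical) against the mean deviation of the 7 tested platelet genes (horizontal), 1 point per library, metastases red and normal lung blue. The high points on both axes are metastasis libraries 1 and 2 and normal library 2. The Pearson r, 0.94 to 0.96 over 10 libraries, came from values with another constant added before the log than in the vertical values drawn.

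Further genes were taken from 7 lists by role, 80 genes in all, of which 65 were tested. They were 5 lists of platelet and megakaryocyte genes, 1 of ligands and partners and 1 of selected genome neighbours. Vwf, Selp and Fcer1g stood both in the list of ligands and partners and in a platelet list, and totals over the 7 lists do not repeat them. Of the 52 tested genes in the 5 platelet and megakaryocyte lists 14 rose and 5 fell, with a median log2 fold change of 0.62. Over all 7 lists 21 rose and 7 fell, with a median log2 fold change of 1.23 against 0.06 over all tested genes. Over the 7 lists libraries 1 and 2 alone gave 14 higher and 1 lower, and libraries 3 to 5 alone gave 17 higher and 6 lower. Over all tested genes libraries 1 and 2 alone gave 487 higher and 201 lower of 12576. Libraries 3 to 5 alone gave 1108 higher and 762 lower of 11933. Of 10 tested platelet receptors 3 rose and 1 fell. P2ry12, the ADP receptor that clopidogrel blocks, had 453, 132, 109, 26.2 and 34.6 CPM in metastasis libraries 1 to 5, against 3.78, 31.2, 14.1, 3.47 and 2.89 CPM in normal lung libraries 1 to 5. Only metastasis library 4 fell below a normal one. It rose by 3.77 ± 0.84 (log2 ± SE; edgeR adjusted p = 0.00236). Cd226, an adhesion receptor, rose by 3.35 ± 0.73 (adjusted p = 0.00201), and F2rl2, the thrombin receptor PAR3 of mouse platelets, by 2.99 ± 1.03 (adjusted p = 0.0419), a call lost with any of 7 libraries left out (adjusted p up to 0.113). Libraries 3 to 5 alone made no call of P2ry12 (3.04, adjusted p = 0.0574) or Cd226 (2.52, adjusted p = 0.0851), and libraries 1 and 2 alone made none of F2rl2 (2.38, adjusted p = 0.169).

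Tbxa2r, the thromboxane receptor, went the other way. It had 0.44, 0.352, 1.04, 1.8 and 0.599 CPM in metastasis libraries 1 to 5, against 44, 21.5, 27.6, 1.72 and 23.9 CPM in normal lung libraries 1 to 5. Normal library 4 alone lay in the range of the metastases. The gene fell by 4.81 ± 1.15 on the log2 scale (SE; edgeR adjusted p = 0.00418). It was at -1.78 and made no call (adjusted p = 0.248) with pan-endothelial scaling, and it made none in libraries 1 and 2 (-6.34, adjusted p = 0.0746) or in libraries 3 to 5 (-3.96, adjusted p = 0.0764). Itgb3, the beta chain of the fibrinogen receptor, had 1188, 1031, 243, 125 and 240.4 CPM in metastasis libraries 1 to 5, against 73.6, 394, 16.8, 23.3 and 12.3 CPM in normal lung libraries 1 to 5, and stood at 2.44 ± 0.87 (edgeR adjusted p = 0.0542). Itgb3 lay close to the threshold and was called in 12 of 26 other settings, among them 4.14 without normal library 2 (adjusted p = 0.000417), 2.26 in libraries 1 and 2 (adjusted p = 0.0377), 3.52 in libraries 3 to 5 (adjusted p = 0.00229) and 2.56 with DESeq2 (adjusted p = 0.0244). Without metastasis library 1 it was 1.95 and not called (adjusted p = 0.128). Its partner Itga2b was at 1.56 ± 1.23 (adjusted p = 0.417), and Itga2, a collagen receptor chain, at -1.23 ± 0.46 (adjusted p = 0.0621).

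Of 11 tested genes downstream of GPVI and CLEC-2, 3 rose and 1 fell, with a median of 0.51. Those that rose were Vav1 (5.14 ± 1.12, adjusted p = 0.00197), Lcp2, the adaptor SLP-76 (4.35 ± 1.09, adjusted p = 0.0059), and Fcer1g, the signalling chain of GPVI (2.59 ± 0.69, adjusted p = 0.00883). All 3 are also expressed by leukocytes, and the summed CPM of 5 pan-leukocyte genes was 169 to 709.8 in metastases and 21.5 to 105 in normal lung. Their part in these calls was not tested. In libraries 1 and 2 alone no call was made of Vav1 (5.07, adjusted p = 0.119), Lcp2 (3.96, adjusted p = 0.115) or Fcer1g (2.26, adjusted p = 0.239). Vav1 was lowest in metastasis library 1 among metastases (1.52 CPM), the library with the highest Ppbp. Vav3 fell by 1.82 ± 0.61 (log2 ± SE; edgeR adjusted p = 0.0354) and lost the call with any of 6 libraries left out, and it turned to 0.24 when libraries were scaled to the pan-endothelial genes. Neither libraries 1 and 2 (-1.21, adjusted p = 0.502) nor libraries 3 to 5 (-2.16, adjusted p = 0.0584) made the call of Vav3 alone. Lyn, a kinase of the same pathway, was at -1.01 ± 0.39 (adjusted p = 0.0714).

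Of 12 granule genes 2 rose and 1 fell, with a median of 0.45. F5 had 3805, 998, 707, 262 and 154 CPM in metastasis libraries 1 to 5, against 111, 328, 34, 65.9 and 47.6 CPM in normal lung libraries 1 to 5, the same high libraries as for Ppbp. Mmrn1, multimerin 1, which is found in platelets and in endothelium, rose by 2.65 ± 0.70 (log2 ± SE; edgeR adjusted p = 0.00874), a call lost without metastasis library 1 (1.77, adjusted p = 0.0716) and in libraries 3 to 5 alone (1.20, adjusted p = 0.34). Pdgfb, a growth factor of platelets and endothelium, fell by 2.89 ± 0.70 (adjusted p = 0.00461), but was at -0.24 and made no call (adjusted p = 0.828) with pan-endothelial scaling, and made none in libraries 1 and 2 alone (-2.92, adjusted p = 0.0867). Vwf, the ligand of GPIb-IX made by endothelium and megakaryocytes, was at -0.01 ± 0.85 (adjusted p = 0.994) and turned to 2.01 with pan-endothelial scaling. Thbs1, thrombospondin 1, was at 2.22 ± 0.82 (adjusted p = 0.0652) and Selp, P-selectin, at 1.66 ± 1.43 (adjusted p = 0.468).

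Of 10 cytoskeletal and enzyme genes 4 rose, and none fell by edgeR, also at an unadjusted p under 0.05, by DESeq2 or by limma on FPKM. All 10 log2 fold changes were positive, with a median of 1.41. Whether leukocyte or fibroblast RNA takes part in these changes was not tested. Those that rose were Plek, the protein kinase C substrate pleckstrin (2.87 ± 0.58, adjusted p = 0.00102), Rgs18 (3.48 ± 1.00, adjusted p = 0.015), Bin2 (2.70 ± 0.83, adjusted p = 0.0223) and Flna, filamin A (2.45 ± 0.52, adjusted p = 0.00168). Rgs18 made no call without metastasis library 1 (adjusted p = 0.0639), and Bin2 made none without metastasis library 1 (0.0513) or normal library 3 (0.0536). Neither Rgs18 (3.17, adjusted p = 0.134) nor Bin2 (1.77, adjusted p = 0.283) was called in libraries 1 and 2 alone. Myh9, a non-muscle myosin heavy chain, was at 0.38 ± 0.43 (adjusted p = 0.605).

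Of 9 tested megakaryocyte regulators 2 rose and 2 fell, and the median was -0.92. Runx1, a transcription factor of blood cell formation, had 72.9, 199.8, 202, 63.1 and 235 CPM in metastasis libraries 1 to 5, against 1.68, 15.4, 3.58, 4.28 and 32.3 CPM in normal lung libraries 1 to 5. Every metastasis library lay above every normal one. Runx1 rose by 3.75 ± 0.76 (log2 ± SE; edgeR adjusted p = 0.001). Gata2 fell by 2.40 ± 0.51 (adjusted p = 0.00158) and Meis1 by 2.06 ± 0.53 (adjusted p = 0.00677), and with pan-endothelial scaling Gata2 was at -0.21 (adjusted p = 0.79) and Meis1 turned to 0.04. In libraries 1 and 2 alone Gata2 (-2.17, adjusted p = 0.0617) and Meis1 (-1.29, adjusted p = 0.335) made no call. Both also act in endothelial cells. Gata1, the factor that drives megakaryocyte and red cell genes, was at 0 CPM in 9 of 10 libraries and at 0.106 CPM in metastasis library 5, and Gfi1b was at 0 CPM outside normal library 1.

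**Figure D4:**
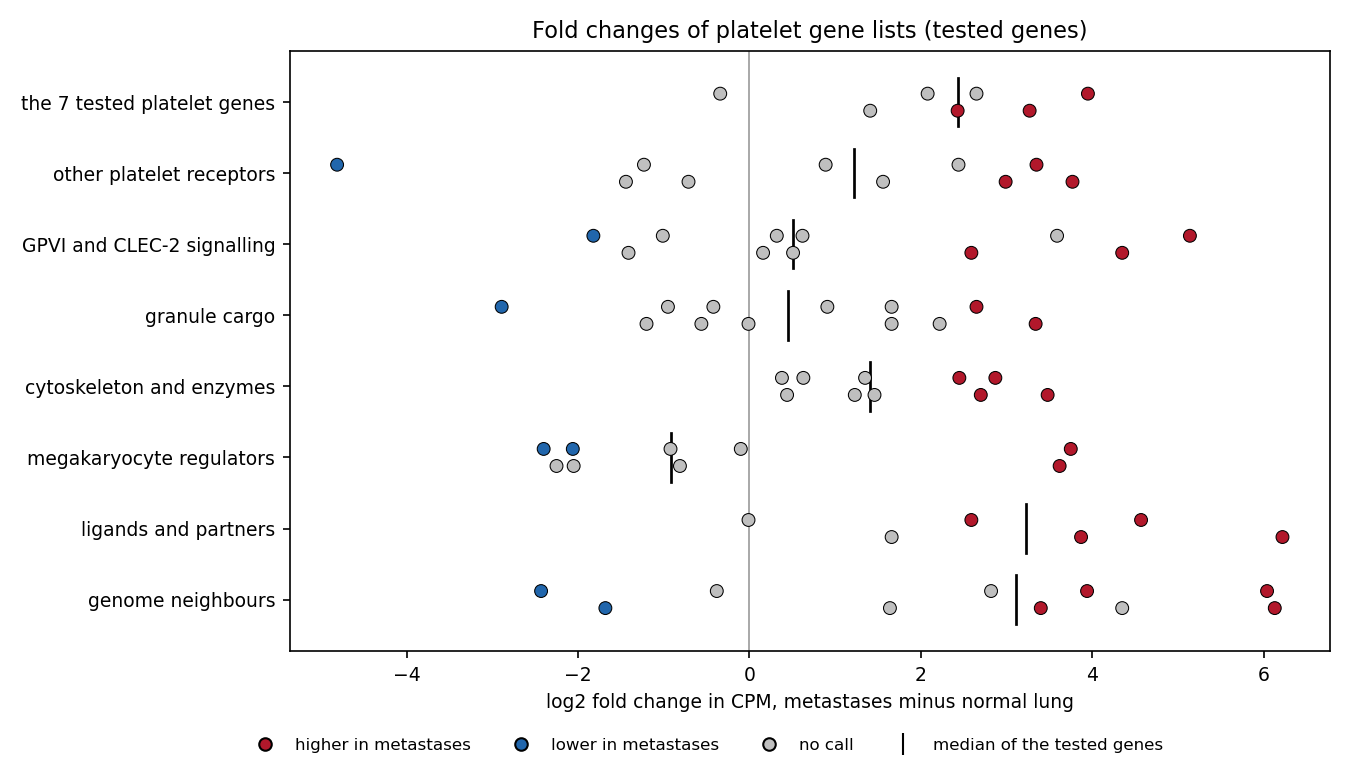
Log2 fold change of CPM, metastases minus normal lung, for each tested gene (point) of the platelet genes and of 7 lists by role, red where higher, blue where lower and grey where not called, with the median of each list as a black bar. Medians ran from -0.92 for megakaryocyte regulators to 3.23 for ligands and partners, a list that shares Vwf, Selp and Fcer1g with platelet lists.

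Among 6 tested ligands and partners 4 rose, and none fell by edgeR, also at an unadjusted p under 0.05, by DESeq2 or by limma on FPKM. Of the 4, Fcer1g is also counted among the genes downstream of GPVI and CLEC-2. Cxcr2, the receptor for the chemokine made from Ppbp, had 5.69, 30.8, 0.248, 31.3 and 22.5 CPM in metastasis libraries 1 to 5, against 0.199, 0.347, 0.118, 0.235 and 0.297 CPM in normal lung libraries 1 to 5, and rose by 6.22 ± 1.38 (log2 ± SE; edgeR adjusted p = 0.00228). It is a marker of neutrophils, and libraries 1 and 2 alone made no call of it (6.07, adjusted p = 0.149). In libraries 3 to 5 alone it did not pass the filter, with metastasis library 3 at 0.248 CPM though libraries 4 and 5 held 31.3 and 22.5 CPM. The collagen genes Col1a1 (4.57 ± 0.99, adjusted p = 0.00182) and Col3a1 (3.87 ± 0.78, adjusted p = 0.00102) rose, and collagen is the ligand of GPVI. Libraries 3 to 5 alone made no call of Col1a1 (3.26, adjusted p = 0.0595). Pdpn, the ligand of CLEC-2, was too low in most libraries to be tested. It had 0.0338, 10.8, 0.0496, 1.57 and 3.28 CPM in metastasis libraries 1 to 5 and 0.012 to 0.027 CPM in normal lung. The 3 fibrinogen genes were at 0 in every library.

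A further list held selected genome neighbours, namely Sept5 and chemokine, lectin and TREM family genes near Ppbp, Pf4, Clec1b and Treml1. It held no neighbour of Gp1ba, Gp9 or Gp6. Of 10 tested genes in it 4 rose and 2 fell. Cxcl1 (3.94 ± 0.97, adjusted p = 0.00522) and Cxcl2 (6.13 ± 0.68, adjusted p = 1e-06), neutrophil-attracting chemokines of the same CXC cluster as Ppbp and Pf4, rose. Cxcl2 had 132, 205, 119, 78.9 and 108 CPM in metastasis libraries 1 to 5, against 1.47, 1.06, 1.93, 3.08 and 1.67 CPM in normal lung libraries 1 to 5. Unlike Ppbp, it was no higher in metastasis library 1 than in metastasis library 2 and did not overlap between the groups. Near Clec1b, the lectin gene Clec7a, the beta-glucan receptor of myeloid cells, rose by 6.04 ± 1.19 (adjusted p = 0.000786). Clec1a fell by 2.43 ± 0.46 (adjusted p = 0.000557) and Clec9a by 1.68 ± 0.59 (adjusted p = 0.047), and with pan-endothelial scaling Clec1a was at -0.19 and Clec9a turned to 0.19. The call of Clec9a was lost with any of 7 libraries left out and in each library set alone (-0.92 and -2.10, adjusted p = 0.556 and 0.0739), and that of Clec7a in libraries 1 and 2 (5.51, adjusted p = 0.155). Cxcl1 made no call in libraries 3 to 5 alone (3.40, adjusted p = 0.0672). Treml2, near Treml1, rose by 3.40 ± 0.97 (adjusted p = 0.0181) and was at 1.96 without a call (adjusted p = 0.0943) without metastasis library 1, and at 2.85 (adjusted p = 0.0651) in libraries 3 to 5 alone.

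Markers of other cells that the gate could hold moved as well. Summed over 8 neutrophil genes the level was 40.6 to 79.2 CPM in metastases and 0.367 to 2.45 CPM in normal lung, and 3 of 3 tested genes rose. Summed over 6 fibroblast genes it was 323 to 906 CPM in metastases and 6.08 to 59.1 CPM in normal lung, and 5 of 5 tested genes rose. Summed over 12 macrophage genes it was 317, 1401, 1481, 1003 and 895 CPM in metastasis libraries 1 to 5 and 424 to 677 CPM in normal lung, with 3 of 8 tested genes higher and 1 lower. The gene that fell was Mertk, an uptake receptor for dying cells, at 35.4 to 64.5 CPM in metastases and 365 to 510.5 CPM in normal lung. Without Mertk, a sum formed after these values were seen, the other 11 genes came to 282, 1354, 1417, 968 and 838 CPM in metastasis libraries 1 to 5 and 54.6 to 233 CPM in normal lung. In metastases most of this sum was 1 gene, Lyz2, at 210.3, 831, 1208, 705 and 659.8 CPM in libraries 1 to 5. Lyz2 had 11.2 to 121 CPM in normal lung and rose by 3.93 ± 0.61 (log2 ± SE; edgeR adjusted p = 6.84e-05). Metastasis library 1, the highest for Ppbp, Gp1ba and Clec1b, was the lowest metastasis library for macrophage genes by either sum, and without Mertk it lay above every normal library. Among the leukocyte markers Ptprc, which encodes CD45, rose by 2.77 ± 0.57 (log2 ± SE; edgeR adjusted p = 0.0012) and 4 of 5 tested genes of its list rose. Ptprc made no call in libraries 1 and 2 alone (2.64, adjusted p = 0.125).

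The remaining marker lists were near the floor. No lymphocyte gene of 2 tested was called by edgeR, also at an unadjusted p under 0.05, by DESeq2 or by limma on FPKM, and the sum over 6 genes was 0.397 to 18 CPM in metastases and 0.297 to 11.2 CPM in normal lung. Mast cell and basophil genes summed to 0 to 0.141 CPM in metastases and 0 CPM in normal lung. Red cell genes summed to 0.248 to 6.39 CPM in metastases and 0 to 8.62 CPM in normal lung, and 6 of the 10, the globin genes among them, were at 0 in every count file. The FPKM table lists globin genes above 0, so a count of 0 does not show that they were absent. Whether RNA of any of these cells takes part in the levels of the 8 platelet genes was not tested.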

How the data were processed

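RNA of sorted cells from 10 samples was sequenced as paired reads of 100 bp (60 to 80 M reads each) from the Ovation RNA-Seq System V2 amplification kit, per the labels. The submitters' processing notes list DESeq2 1.6.3, HTSeq 0.6.1, Cufflinks 2.2.1 and TopHat2 2.0.13, with mm10 and GRCm38 as builds. Annotation and strand setting are not given in the sources used. The deposited counts are whole reads per gene, not normalized, in 1 file per sample. HTSeq summary rows, 65.6 to 85.4% of all counted entries, were left out of library sizes and tests. They made up 71.8 to 85.4% in metastases and 65.6 to 75.7% in normal lung. Alignments that were not unique came to 48.4 to 87.5 per 100 gene counts in metastases and 28.5 to 45.4 in normal lung. Whether this difference between the groups takes part in the calls was not tested. The authors also deposited a table of FPKM, scaled by them for transcript length and depth, for 24460 genes, which served for levels between genes and as an alternative. The columns of per-sample values not used numbered 0.

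Counts of 24538 genes were read, of which 7652 were at 0 in every sample. In R 4.3.3 with edgeR 4.0.16, genes were filtered with filterByExpr and libraries scaled by TMM. Groups were compared by the robust quasi-likelihood F test without covariates, two-sided, with Benjamini-Hochberg adjustment over 11823 genes and a threshold of 0.05. The SE is the size of the log2 change divided by the root of F, and the common biological coefficient of variation was 1.01. Single genes were also compared by exact permutation of log2(CPM + 1). No libraries had identical counts, and the highest correlation of log2(CPM + 1) within a group was 0.856. Alternatives were DESeq2 1.42.0, limma 3.58.1 on log2(FPKM + 1) and log2(FPKM + 0.1), other scalings and filters, thinning to 21677429 counts, a block for the replicate number, a threshold of 0.01, library sets, and leaving out each library. Figures used matplotlib 3.10.9 under Python 3.11.15.

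The 8 genes, the lists and these settings were chosen with earlier results of these data known, so no pattern already seen in them is independent support. Besides the 8 genes, the text names in each of the 7 lists by role up to 2 called genes with the largest change each way and the 2 with the highest mean CPM, the same 2 of a marker list where a result turns on them, and the 5 genes most alike. Genes that complete a count of 5 or fewer, and Itga2b, Selp, Pdpn, Gata1, Gfi1b and Sept5, were added after their values were seen. For 1 gene of the megakaryocyte regulators the values are not reported here.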

Additional observations from a re-analysis of the deposited data

Results flagged for a closer look

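In 7 cases the highest of the 5 libraries of a group lay further from its nearest neighbour than 0.71 of the range of its group. That is Dixon's 95% limit for 5 normally distributed values. CPM were skewed, as for Ppbp in metastases at 3424 ± 4808 (SD), so the limit does not tell how often chance makes such gaps here. Log values were not tested in this way, and the 8 genes in 2 groups share libraries. Metastasis library 1 held 11948 CPM of Ppbp, against 2300.2 CPM in the next metastasis library, and 209 CPM of Clec1b, against 26.7 CPM. Metastasis library 3 held 342 CPM of Pf4, against 77.4 CPM in the next. Metastasis library 2 held 5.74 CPM of Treml1, against 0.474 CPM in the next. Normal library 2 held 809.8 CPM of Ppbp, against 311 CPM in the next normal library, 9.85 CPM of Gp1bb, against 0.949 CPM, and 10.5 CPM of Gp9, against 1.49 CPM.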

How the results depend on the processing

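Of 187 comparisons of the 8 genes under another setting 174 kept their side of the threshold, 9 lost a call, 4 gained one and 0 called values changed sign. Of the 174, 9 were uncalled values that changed sign, 7 of Gp6 and 2 of Clec1b. The number of platelet genes higher, 3, became 6 with pan-endothelial scaling, 1 in replicates 3 to 5 alone and 0 by limma on FPKM without a filter, where Ppbp stood at 2.53 (adjusted p = 0.0793), Pf4 at 2.95 (0.122) and Gp1ba at 2.29 (0.0963). It was 2 to 4 with 1 library left out. All genes higher, 1420, became 2380 with DESeq2, 6851 with pan-endothelial scaling, 487 in replicates 1 and 2 alone and 869 at a threshold of 0.01. All genes lower, 972, became 1663, 18, 201 and 453 under these settings, and 527 with metastasis libraries 1 to 3 against all normal lung. Genes higher in the 7 lists by role, 21, became 43 with pan-endothelial scaling. Those lower, 7, became 0 with that scaling, 1 in replicates 1 and 2 alone and 4 with metastasis libraries 1 to 3.

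Of 1204 comparisons of the 47 other named genes 1052 kept their side of the threshold, 23 of them uncalled values that changed sign, 109 lost a call, 36 gained one and 7 reversed. The 7 reversals came with pan-endothelial scaling, which moved the median of all genes from 0.06 to 2.75: Vav3 (0.24), Lyn (1.49), Meis1 (0.04), Vwf (2.01), Clec9a (0.19), Cdh5 (0.08) and Pecam1 (0.20). Library totals moved it to 0.32 and RLE scaling to 0.14. With the replicate block Ppbp was at 2.51 (adjusted p = 5.45e-06), Pf4 at 3.12 (0.00302), Gp1ba at 2.42 (0.000105) and Clec1b at 0.01 (0.996), and 3 platelet genes were higher. No label says that the numbers pair the samples. Same-numbered libraries correlated at 0.001 to 0.142 in their deviations, and 2 of 5 correlated best with their own number. With 5 libraries per group these values cannot decide whether samples were paired. Where calls changed, the cause was not tested. Levels below 1 CPM, as for Gp6 and Treml1 in libraries 3 to 5, rest on 1 to 26 counts, and depth limits what they show.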
